A study of Mus musculus with 24 samples.

Results

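Homeostatic microglia genes were followed through bulk RNA sequencing of mouse frontal cortex. The set holds 10 genes used as markers of resting microglia, the resident macrophages of the brain: P2ry12, P2ry13, Gpr34, Csf1r, Cx3cr1, Tmem119, Siglech, Fcrls, Selplg and Sall1. They were chosen by name, with earlier results of these data known and no measured value in the rule, from the 52352 genes that the deposited transcripts could be placed in, and 10 of 10 passed the filter on low counts. The libraries came from 24 mice, littermates of a cross between mice heterozygous for progranulin (Grn) and mice with a transgene for human TDP-43 (hTDP). The 4 genotypes had 6 mice each, 3 females and 3 males: Grn+/-:hTDP+ mice aged 9.44 to 10.07 months, Grn+/+:hTDP+ mice aged 9.44 to 10.07 months, Grn+/-:hTDP- mice aged 8.19 to 10.79 months and Grn+/+:hTDP- mice aged 9.44 to 10.79 months. The promoter and the cell type that drive the transgene are not stated in these labels. The study's title names an interaction of progranulin insufficiency with TDP-43 overexpression, and the comparisons ask whether these microglial genes moved with either change, with the pair, or with sex.

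Microglia survey the tissue with fine processes and hold a resting expression program that depends on TGF-beta and on signalling through the receptor Csf1r. P2ry12 and P2ry13 are receptors for ADP, Gpr34 is a receptor for lysophosphatidylserine, Csf1r is the receptor for the survival factors Csf1 and Il34, and Cx3cr1 is the receptor for the neuronal chemokine Cx3cl1. Tmem119 is a membrane protein that separates microglia from blood-derived macrophages, Siglech is a sialic acid-binding lectin that signals through the adaptor Tyrobp, Fcrls is an Fc receptor-like protein, Selplg is the ligand of P-selectin, and Sall1 is a zinc finger transcription factor that maintains microglial identity. Several of these genes are known to fall when microglia take on an activated state.

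Promoter windows, 250 bases before and 50 after the annotated start, were found in RefSeq (GRCm38.p6) for 6 of the 10 genes. The windows were searched for 2 motifs because the microglial lineage factor PU.1 binds GGAA-centred sites. Cx3cr1, without a match, and Sall1, with a match at the third of 3 starts only, are not printed. Those of the 4 genes whose only window held a match are shown. Each is written 5′ to 3′ along the gene, with matches to GAGGAA or GGAAGT on either strand in capitals. The 2 motifs share the letters GGAA, and a match on the opposite strand reads TTCCTC or ACTTCC.
P2ry12, chr3:59262936-59263235, minus strand: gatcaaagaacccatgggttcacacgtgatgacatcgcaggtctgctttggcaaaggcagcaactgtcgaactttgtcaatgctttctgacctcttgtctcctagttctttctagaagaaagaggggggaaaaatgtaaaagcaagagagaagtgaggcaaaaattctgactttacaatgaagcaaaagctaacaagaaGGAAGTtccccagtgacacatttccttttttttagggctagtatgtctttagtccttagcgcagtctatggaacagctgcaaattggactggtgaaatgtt
P2ry13, chr3:59210833-59211132, minus strand: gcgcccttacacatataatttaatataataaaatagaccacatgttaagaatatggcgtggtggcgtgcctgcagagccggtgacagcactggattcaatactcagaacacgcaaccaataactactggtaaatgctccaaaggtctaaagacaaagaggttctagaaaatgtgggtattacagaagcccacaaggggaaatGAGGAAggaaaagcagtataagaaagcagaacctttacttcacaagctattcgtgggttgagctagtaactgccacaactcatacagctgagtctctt
Siglech, chr7:55767934-55768233, plus strand: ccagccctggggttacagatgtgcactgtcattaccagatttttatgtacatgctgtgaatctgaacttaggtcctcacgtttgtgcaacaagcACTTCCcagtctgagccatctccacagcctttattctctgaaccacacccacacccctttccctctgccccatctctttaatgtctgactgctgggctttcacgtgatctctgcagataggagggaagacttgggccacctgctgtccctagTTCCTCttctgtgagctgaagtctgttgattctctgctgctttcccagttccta
Fcrls, chr3:87263475-87263774, minus strand: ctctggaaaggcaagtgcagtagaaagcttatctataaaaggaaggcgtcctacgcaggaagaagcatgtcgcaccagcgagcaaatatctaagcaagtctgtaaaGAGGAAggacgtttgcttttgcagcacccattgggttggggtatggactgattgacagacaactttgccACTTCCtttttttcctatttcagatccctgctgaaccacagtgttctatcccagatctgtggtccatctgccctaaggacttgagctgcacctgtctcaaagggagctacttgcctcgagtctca
In P2ry12 the match began 51 bases before the start, and in P2ry13 48 bases before it. Siglech held matches on the opposite strand 156 and 4 bases before the start, and Fcrls held one on each strand, 144 and 75 bases before it. Over the 6 genes with a window, 3 held GAGGAA (P2ry13, Siglech and Fcrls), 4 held GGAAGT (P2ry12, Siglech, Fcrls and the third of 3 starts of Sall1) and 5 held either. Of all 32851 RefSeq windows of this length, 28.3% held GAGGAA, 23.8% held GGAAGT and 43.4% held either. That share is per window, and counted so, 5 of the 8 windows of these 6 genes held either. A match is a description of these letters, and none in the Cx3cr1 window says only that the letters are not there.

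Libraries held 61445842 to 100859149 estimated reads. One library stood apart: replicate 2 of the Grn+/+:hTDP+ mice, a female, listed 40188 transcripts above 0, against 65994 to 69846 in the others. For the members, log2 changes that rest on it are given with and without it, as are most correlations of the set. Levels by genotype, transcript shares and counts of passing pairs are given with all libraries unless stated. The targeted genes followed the labels. The human TARDBP transcript had 4328 to 8162 reads in hTDP+ libraries and at most 2 in hTDP- libraries, and Grn was lower in Grn+/- than in Grn+/+ mice by 0.91 on the log2 scale (SE 0.117, edgeR's quasi-likelihood test, adjusted p = 0.000614). The tissue carried its microglia: the 10 genes summed to 176 to 270 TPM (transcript abundance scaled to a fixed total, a level corrected for transcript length), with a median of 216 TPM. Markers of border macrophages and monocytes summed to 6.76 to 17.6 TPM over 12 genes, and those of other leukocytes to 1.46 to 12.9 TPM over 10 genes. Among the other leukocyte markers, the T cell gene Cd3g was listed at 0 in 14 libraries, the most of that list. S100a8 and S100a9 had the highest means of that list, 2.04 and 2.57 TPM, and were at 0 in 2 and 0 libraries.

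All 10 genes were expressed in every library, at mean levels per length that followed this order. Csf1r averaged 44.2 ± 9.65 TPM and P2ry12 42.5 ± 5.19 TPM (mean ± SD, n = 24 libraries). Cx3cr1 followed at 26.8 ± 2.50 TPM, Selplg at 24.2 ± 3.68 TPM, Tmem119 at 21.6 ± 2.38 TPM and Fcrls at 19.4 ± 2.30 TPM. Siglech stood at 13.8 ± 2.08 TPM, Gpr34 at 10.3 ± 1.35 TPM, P2ry13 at 8.32 ± 0.961 TPM and Sall1, the transcription factor, at 7.39 ± 0.689 TPM. Neighbours in this order did not always differ beyond their spread: Csf1r was above P2ry12 in only 10 of 24 libraries, and the steps between Cx3cr1 and Selplg, Selplg and Tmem119, Tmem119 and Fcrls, and P2ry13 and Sall1 were each within 1 SD of the more variable gene, although the first-named was higher in 20 to 22 of 24 libraries. The step down to Cx3cr1 below P2ry12 was seen in 24 of 24 libraries, and that from Fcrls to Siglech in 23 of 24.

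Part of this order rested on short transcripts, whose TPM is high for few reads. A 619-base transcript of P2ry12 held 11.9% ± 1.90 (SD, n = 24) of the gene's reads and 18.8 TPM of its level, so that its transcripts of at least 1000 bases came to 23.7 ± 2.83 TPM, below Cx3cr1. Siglech likewise came to 7.53 ± 0.934 TPM with the longer transcripts alone, below Gpr34 and P2ry13. Csf1r stayed the highest at 40.4 ± 3.88 TPM, and its wide spread narrowed: a 416-base transcript with 0.252% of its reads gave most of the 0 to 19.7 TPM that short transcripts added from library to library. This split was chosen after the data were seen.

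**Figure D1:**
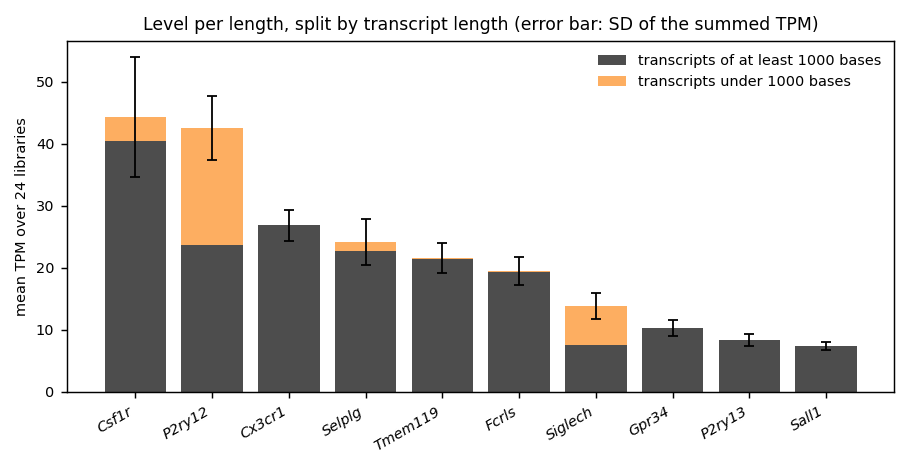
Mean TPM of each gene over 24 libraries, split into transcripts of at least 1000 bases (dark) and shorter ones (orange); error bars are the SD of the summed TPM. Short transcripts make up 18.8 of 42.5 TPM in P2ry12 and 6.26 of 13.8 TPM in Siglech.

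The genes differed in how many transcripts shared their reads. P2ry13 and Sall1 have 1 transcript each in the annotation, and Tmem119, Fcrls and Selplg gave 98.2% or more of their reads to a single one. Gpr34 gave 83.1% ± 8.72 of its reads to its main transcript, Cx3cr1 81.3% ± 7.59, Csf1r 74.7% ± 3.76 and P2ry12 63.8% ± 9.20 (SD, n = 24). Siglech was the most divided: a transcript annotated as subject to nonsense-mediated decay held the largest share, 33.6% ± 8.11, ahead of a coding one at 27.5% ± 9.69. The share of that decay-annotated transcript was 36.9% ± 4.60 in Grn+/-:hTDP+, 33.1% ± 13.4 in Grn+/+:hTDP+, 31.7% ± 5.31 in Grn+/-:hTDP- and 32.6% ± 7.39 in Grn+/+:hTDP- mice (SD, n = 6 each). With all libraries the genotype means thus lay within the spread between mice. The highest share, 59.1%, was that of the library that stood apart, in Grn+/+:hTDP+. It widens the spread of that group, and the group's share without it was not computed. Shares among transcripts of a gene are Salmon's estimates and depend on how reads that fit several of them were divided.

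The 10 genes lie on 7 chromosomes, with 3 on chromosome 3. P2ry13 (bases 59207892 to 59210882, minus strand, GRCm38) and P2ry12 (59216272 to 59262871, minus strand) are neighbours there, both inside the Mediator subunit gene Med12l on the opposite strand, and Fcrls (87250758 to 87263738, minus strand) lies farther along. Tmem119 (113793729 to 113800516) and Selplg (113818536 to 113832644) sit near each other on the minus strand of chromosome 5. Siglech is on chromosome 7 (55768178 to 55778925, plus strand), Sall1 on chromosome 8 (89027235 to 89044162, minus strand), Cx3cr1 on chromosome 9 (119901616 to 120069879, minus strand), Csf1r on chromosome 18 (61100598 to 61132149, plus strand) and Gpr34 on the X chromosome (13632089 to 13640858, plus strand), inside Cask on the opposite strand. Whether the libraries keep strand is not clear from the protocol text, so reads in shared exon bases cannot be assigned by strand. Such bases were 9 of 2546 in P2ry12, 0 in P2ry13 and Gpr34, 78 of 4505 in Cx3cr1, and 873 of 5774 in Csf1r, where the other gene is Hmgxb3.

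No gene of the set was called in any genotype comparison. Among the ADP receptors, P2ry12 had 37.3, 41.5 and 47.0 TPM (lowest, median and highest of 6) in Grn+/-:hTDP+ mice, 31.3, 42.8 and 51.2 TPM in Grn+/+:hTDP+, 38.8, 44.0 and 49.9 TPM in Grn+/-:hTDP- and 32.4, 42.6 and 46.2 TPM in Grn+/+:hTDP- mice. Its neighbour P2ry13 averaged 8.38 ± 1.23 TPM in Grn+/-:hTDP+, 8.42 ± 0.674 in Grn+/+:hTDP+, 8.41 ± 1.28 in Grn+/-:hTDP- and 8.09 ± 0.742 in Grn+/+:hTDP- (SD, n = 6 each). Gpr34 averaged 10.4 ± 1.38 TPM in Grn+/-:hTDP+, 9.99 ± 1.497 in Grn+/+:hTDP+, 10.8 ± 1.49 in Grn+/-:hTDP- and 9.85 ± 1.11 in Grn+/+:hTDP- mice. Its Grn+/+:hTDP+ mean was 9.47 ± 0.864 TPM (SD, n = 5) without the library that stood apart. For each of these G protein-coupled receptors the 4 groups overlapped.

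Of the receptors for growth factor and chemokine, Csf1r averaged 46.8 ± 12.9 TPM in Grn+/-:hTDP+, 39.5 ± 3.47 in Grn+/+:hTDP+, 47.4 ± 11.4 in Grn+/-:hTDP- and 43.3 ± 8.52 in Grn+/+:hTDP- mice (SD, n = 6 each). With transcripts of at least 1000 bases alone it averaged 40.8 ± 4.45 TPM in Grn+/-:hTDP+, 38.6 ± 2.37 in Grn+/+:hTDP+, 42.02 ± 5.56 in Grn+/-:hTDP- and 40.2 ± 2.30 in Grn+/+:hTDP- mice. The SD of Csf1r between mice was thus at most 5.56 TPM once the short transcripts were left out. Cx3cr1, the chemokine receptor, averaged 26.8 ± 2.07 TPM in Grn+/-:hTDP+, 25.9 ± 2.18 in Grn+/+:hTDP+, 28.0 ± 3.61 in Grn+/-:hTDP- and 26.6 ± 2.01 in Grn+/+:hTDP- mice.

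Among the surface markers, Tmem119 had 19.5, 21.5 and 25.3 TPM (lowest, median and highest) in Grn+/-:hTDP+ mice, 16.1, 21.0 and 23.3 in Grn+/+:hTDP+, 19.5, 22.5 and 28.2 in Grn+/-:hTDP- and 18.9, 20.4 and 23.0 in Grn+/+:hTDP- mice. Selplg had 19.3, 22.8 and 26.3 TPM in Grn+/-:hTDP+ mice, 20.7, 25.1 and 35.9 in Grn+/+:hTDP+, 20.2, 24.8 and 30.1 in Grn+/-:hTDP- and 20.4, 22.8 and 24.8 in Grn+/+:hTDP- mice. The highest Selplg value was that of the library that stood apart, and the other 5 mice of its group reached 29.0 TPM. Fcrls averaged 19.1 ± 2.42 TPM in Grn+/-:hTDP+, 18.4 ± 2.37 in Grn+/+:hTDP+, 20.8 ± 1.80 in Grn+/-:hTDP- and 19.5 ± 2.48 in Grn+/+:hTDP- mice (SD, n = 6 each). Siglech averaged 14.2 ± 1.34 TPM in Grn+/-:hTDP+, 13.04 ± 2.81 in Grn+/+:hTDP+, 14.3 ± 2.64 in Grn+/-:hTDP- and 13.7 ± 1.43 in Grn+/+:hTDP- mice. Its Grn+/+:hTDP+ mean was 12.1 ± 1.68 TPM (SD, n = 5) without the library that stood apart. Sall1, the transcription factor of the set, averaged 7.18 ± 0.402 TPM in Grn+/-:hTDP+, 7.37 ± 0.916 in Grn+/+:hTDP+, 7.83 ± 0.903 in Grn+/-:hTDP- and 7.19 ± 0.196 in Grn+/+:hTDP- mice. In all of these the groups overlapped.

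**Figure D2:**
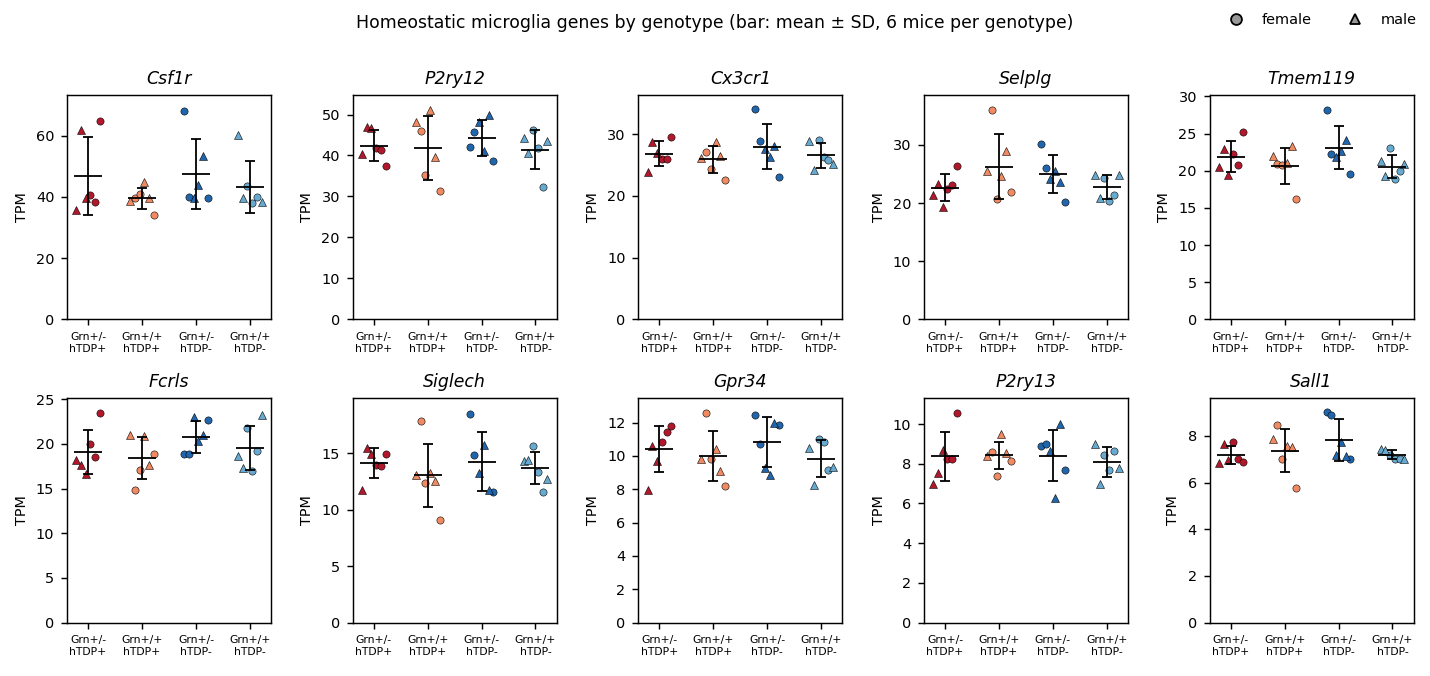
TPM of each homeostatic microglia gene in the 24 libraries by genotype; circles are females, triangles males, and bars the mean ± SD of 6 mice. The genotypes overlap for every gene, and the highest Selplg point, 35.9 TPM, belongs to replicate 2 of the Grn+/+:hTDP+ mice.

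No homeostatic gene changed past the test with the transgene. In the average transgene effect (hTDP+ minus hTDP-, averaged over both Grn genotypes), 0 of 10 genes passed an adjusted p of 0.05 by edgeR, DESeq2 or limma-voom, and 0 of 10 had an unadjusted p under 0.05 by any of them; of all 18239 genes tested, 0.11% were called by edgeR and 7.86% had an unadjusted p under 0.05. Of the 10, 4 lay above 0, where 51.6% of all genes did, and their median log2 change was -0.01, beside 0.003 over all genes. The values ran from -0.08 for Fcrls (SE 0.0705) to 0.05 for P2ry13 (SE 0.0732). The 95% confidence intervals of all 10 lay between -0.22 and 0.20, so changes larger than that on the log2 scale are outside every interval. Without the library that stood apart 2 of 10 lay above 0, and over the 32 alternative fits 2 to 8 did. In bulk tissue, fewer microglia and less RNA per microglial cell cannot be told apart.

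Loss of a Grn allele went with slightly higher values that did not pass the test. In the average Grn effect (Grn+/- minus Grn+/+, averaged over both transgene states), 0 of 10 genes were called by edgeR, DESeq2 or limma-voom, where 0.0219% of all genes were called by edgeR. The log2 change was above 0 in 9 of 10 genes, where it was above 0 in 53.5% of all genes, and the median was 0.08, beside 0.005 over all genes. Tmem119 was the only one with an unadjusted p under 0.05, by all 3 tools, where 4.93% of all genes had one. Its CPM (counts scaled to library size) averaged 23.99 ± 2.71 in Grn+/- and 21.9 ± 2.11 in Grn+/+ mice (SD, n = 12 each), a log2 change of 0.13 (SE 0.0620, edgeR, p = 0.0433, adjusted p = 0.926). This p was under 0.05 in 18 of 32 alternative fits and in 11 of the 24 fits that left out 1 library. With age as a factor, which compares mice of the same age, the log2 change was 0.09 (p = 0.268, n = 24), the highest p of all these fits, and without replicate 1 of the Grn+/-:hTDP- mice, the mouse with the highest Tmem119, it was 0.10 (p = 0.104, n = 23). Of the others, Gpr34 was at 0.11 (SE 0.0715), Fcrls at 0.11 (SE 0.0706) and Csf1r at 0.10 (SE 0.0551), while Selplg was at -0.01 (SE 0.0777). Without the library that stood apart, 10 of 10 lay above 0, at 0.05 to 0.15. Across the alternatives tried, 9 or 10 of the 10 lay above 0 each time, but these fits reuse the same mice. The 10 genes also varied together from mouse to mouse (median pairwise r 0.49). Their signs are therefore not separate results, here and in the other comparisons.

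**Figure D3:**
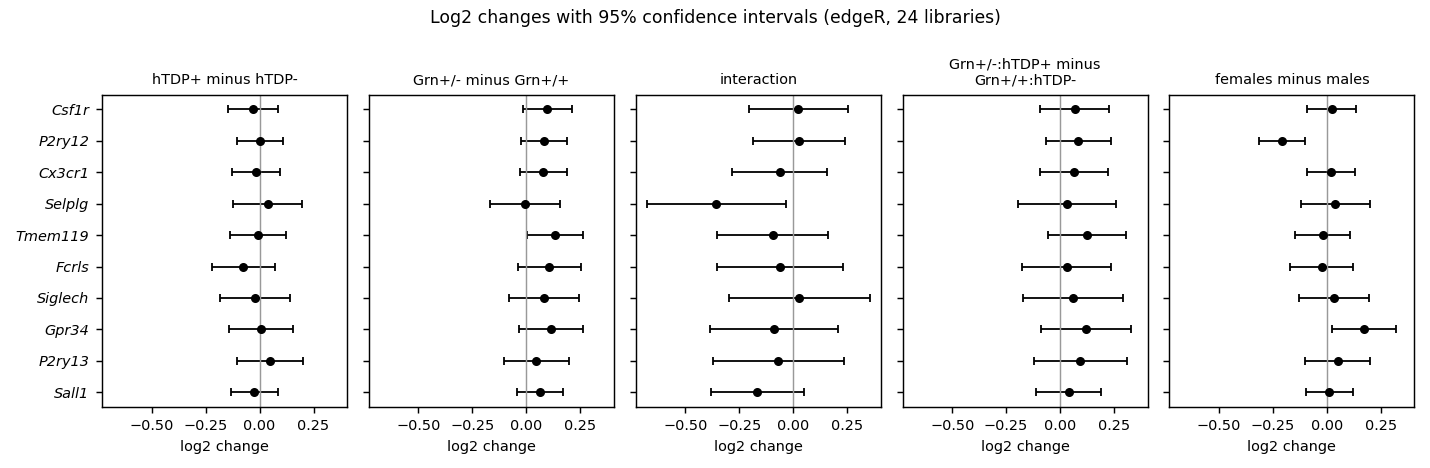
Log2 change of each gene with its 95% confidence interval (edgeR, 24 libraries), in 5 panels: hTDP+ minus hTDP-, Grn+/- minus Grn+/+, interaction, Grn+/-:hTDP+ minus Grn+/+:hTDP-, and females minus males. Most intervals cross 0, and P2ry12 in the sex panel, at -0.21, lies farthest from it relative to its interval.

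Both changes together also gave values above 0 that did not pass the test. For Grn+/-:hTDP+ minus Grn+/+:hTDP- mice, 0 of 10 genes were called by any of the 3 tools and 0 of 10 had an unadjusted p under 0.05, with 0.0768% of all genes called by edgeR and 9.4% at an unadjusted p under 0.05. The log2 change was above 0 in 10 of 10, where 54.9% of all genes were above 0, with a median of 0.06 beside 0.014 over all genes; over the 32 alternative fits 7 to 10 were above 0. The largest were Tmem119 at 0.12 (SE 0.0877) and Gpr34 at 0.12 (SE 0.101), and the intervals of all 10 lay between -0.20 and 0.33. This comparison shares its libraries with those before it, and its values are not independent of them.

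The interaction asks whether the transgene effect differed between Grn+/- and Grn+/+ mice, the question in the study's title. Of the 10 genes 0 were called by edgeR, DESeq2 or limma-voom; 0% of all genes were called by edgeR, and 2.38% had an unadjusted p under 0.05. Selplg was the only member with one, by all 3 tools: its interaction was -0.36 (SE 0.155, 95% interval -0.68 to -0.03, edgeR, p = 0.0315, adjusted p = 1, n = 24). Selplg CPM averaged 18.7 ± 2.27 in Grn+/-:hTDP+, 21.2 ± 4.37 in Grn+/+:hTDP+, 20.6 ± 2.40 in Grn+/-:hTDP- and 18.3 ± 1.72 in Grn+/+:hTDP- mice (SD, n = 6 each). Without the library that stood apart the value was -0.24 (SE 0.130, p = 0.0802, n = 23), and with age as a factor it was -0.31 (SE 0.206, p = 0.149, n = 24). The p was under 0.05 in 26 of 32 alternative fits, among them 19 of the 24 that left out 1 library. The other 9 genes lay between -0.17 (Sall1, SE 0.103) and 0.03 (Siglech, SE 0.157), with wider intervals than in the average effects. Of the 10, 3 lay above 0, where 51.1% of all genes did, and the median was -0.07, beside 0.003 over all genes. Without the library that stood apart 3 of 10 lay above 0, and over the 32 alternative fits 0 to 3 did.

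The smallest p of any member in any comparison was that of P2ry12 for sex, though it did not pass the adjusted threshold. Its values were lower in females. P2ry12 had 21.1, 25.9 and 28.7 CPM (lowest, median and highest of 12) in females, against 25.0, 30.1 and 31.8 CPM in males. Of the 12 females 5 were below every male, and 8 of the 12 males were above every female. The log2 change, females minus males, was -0.21 (SE 0.0513, 95% interval -0.32 to -0.10), with an unadjusted p of 0.000449, at rank 25 of 18239 in edgeR's quasi-likelihood test, and an adjusted p of 0.324. The female mean was lower in 4 of 4 genotypes: in Grn+/-:hTDP+ mice it was 27.1 ± 1.40 CPM in females and 29.4 ± 1.34 in males, and in Grn+/+:hTDP+ mice 23.0 ± 1.31 in females and 30.2 ± 1.62 in males (SD, n = 3 each). In Grn+/-:hTDP- mice it was 26.5 ± 1.46 CPM in females and 29.4 ± 3.31 in males, and in Grn+/+:hTDP- mice 25.0 ± 3.69 in females and 28.3 ± 2.97 in males (SD, n = 3 each). The unadjusted p stayed under 0.05 in 31 of 31 alternative fits, with values of -0.23 to -0.17 and adjusted p-values of 0.0740 (DESeq2) to 0.905 (length-scaled counts).

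The genes beside P2ry12 in the genome had values near 0. Med12l, the gene around it, differed by -0.02 (SE 0.0378, p = 0.576, n = 24), and P2ry13 by 0.05 (SE 0.0733, p = 0.512). Whether the sex difference of P2ry12 differs from theirs was not tested. Within P2ry12 the main transcript had 15.9 ± 2.80 CPM, on unadjusted library totals, in females and 18.6 ± 3.62 in males, and the 619-base transcript 3.07 ± 0.679 in females and 3.34 ± 0.429 in males (SD, n = 12 each). Both thus had the lower mean in females, with ranges that overlapped.

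Gpr34, on the X chromosome, was the other member with an unadjusted p under 0.05, in the opposite direction. It had 7.30, 9.77 and 11.6 CPM (lowest, median and highest of 12) in females and 7.28, 8.61 and 10.7 CPM in males, with a log2 change of 0.17 (SE 0.0715, edgeR, p = 0.0239, adjusted p = 0.805, n = 24). The female mean was higher in 4 of 4 genotypes, and 3 of 12 females were above every male. Its host gene Cask differed by 0.02 (SE 0.0301, p = 0.450, n = 24). Without the library that stood apart, Gpr34 was at 0.14 (p = 0.0595, n = 23), and with age as a factor at 0.15 (p = 0.0658, n = 24). Over the set 0 of 10 were called by sex by edgeR, DESeq2 or limma-voom, and 2 of 10 had an unadjusted p under 0.05 by all 3, where 0.0713% of all genes were called and 5.99% had an unadjusted p under 0.05. The other 8 genes lay between -0.02 (Fcrls, SE 0.0706) and 0.05 (P2ry13), and 7 of 10 members were above 0, where 49.3% of all genes were. Without the library that stood apart 5 of 10 were above 0, and over the 31 alternative fits 4 to 8 were.

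**Figure D4:**
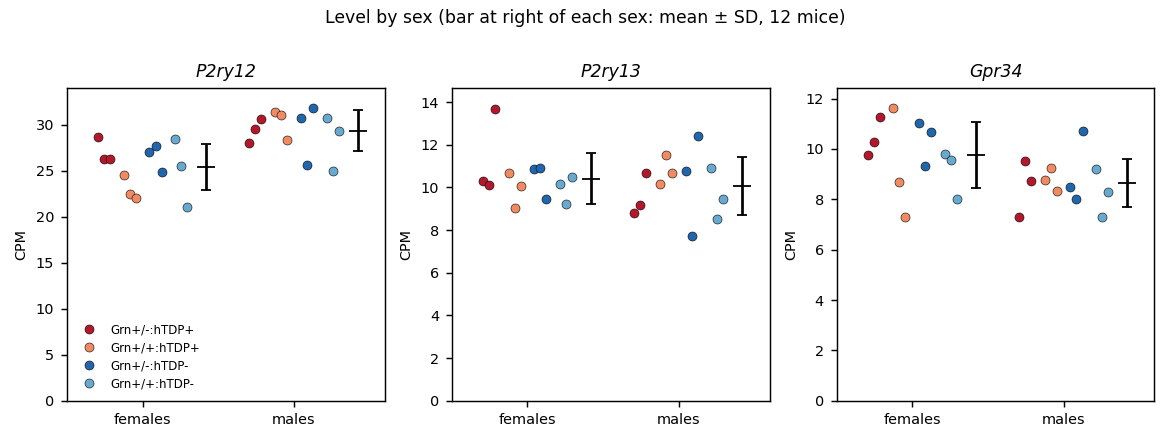
CPM of P2ry12, P2ry13 and Gpr34 in the 12 females and 12 males, coloured by genotype, with the mean ± SD of each sex at its right. P2ry12 has its lower values in females, 21.1 to 28.7 CPM against 25.0 to 31.8 CPM in males, while in P2ry13 1 female lies above every male and 3 males below every female.

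Other genes of the microglial program also passed no test. Of 22 further microglial identity genes 0 were called in any comparison. In the average Grn effect 21 lay above 0 with a median log2 change of 0.10, and 4 had an unadjusted p under 0.05. Of all genes 53.5% lay above 0 there and 4.93% had an unadjusted p under 0.05. Among the first of that list, Olfml3, a secreted matrix protein, was at 0.15 (SE 0.0612, p = 0.0227, n = 24), the fructose transporter Slc2a5 at 0.05 and the UDP receptor P2ry6 at 0.0004. Of 8 transcription factor genes 7 lay above 0 with a median of 0.09: Spi1, which encodes PU.1, was at 0.12 (SE 0.083), Irf8 at 0.15 (SE 0.135), Irf5 at 0.01 and Runx1 at 0.06. The 2 of this list with an unadjusted p under 0.05, named after their values were seen, lay in opposite directions: Sall3, a relative of Sall1, at 0.27 (SE 0.114, p = 0.0292, n = 24) and the repressor Bcl6 at -0.15 (SE 0.0592, p = 0.0168, n = 24), each with an adjusted p of 0.926. Of 19 activated microglia genes that passed the filter 17 lay above 0 with a median of 0.15. An unadjusted p under 0.05 was reached by 4 of the 19, where 4.93% of all genes had one. First in that list were the lipid carrier Apoe at 0.13 (SE 0.0492), the receptor Trem2 at 0.15 (SE 0.0636) and its adaptor Tyrobp at 0.16 (SE 0.0734). The unadjusted p of each of these 3 was under 0.05 and each adjusted p was 0.926; Trem2 and Tyrobp stand in more than one list.

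The ligands of the receptors were close to 0 in both average effects. Of 13 tested ligands and signalling partners, 10 lay above 0 in the Grn effect with a median of 0.04, and 6 in the transgene effect with a median of -0.02. An unadjusted p under 0.05 was reached by 2 of the 13 in the Grn effect and 0 in the transgene effect. In the Grn effect the neuronal chemokine Cx3cl1 was at 0.0005 (SE 0.0537), Csf1 at 0.05 (SE 0.0608), Il34 at 0.04 (SE 0.0433) and Tgfb1 at 0.02 (SE 0.0658). Markers of other cell types also had values off 0 and were not called: in the Grn effect 7 of 7 astrocyte markers (median 0.09) and 7 of 7 vascular markers (median 0.08) lay above 0, and 2 of 7 neuron markers (median -0.03). So did 10 of 11 border macrophage markers (median 0.07) and 5 of 5 other leukocyte markers (median 0.43). Only 2 of 8 oligodendrocyte markers (median -0.08) and 2 of 4 choroid plexus markers (median -0.28) did. In the transgene effect 10 of 11 border macrophage markers (median 0.19) and 7 of 8 oligodendrocyte markers (median 0.22) lay above 0, as did 7 of 7 vascular markers (median 0.05, 3 with an unadjusted p under 0.05). Of all genes 51.6% lay above 0 there and 7.86% had an unadjusted p under 0.05. Other leukocyte markers had the largest median of these lists: 5 of the 10 passed the filter, and 5 of 5 lay above 0 with a median of 0.80 in the transgene effect, 1 of them with an unadjusted p under 0.05. For both changes against neither their median was 1.61, with 3 of 5 at an unadjusted p under 0.05, where 9.4% of all genes had one. Summed, they ran from 5.93 to 12.9 TPM in Grn+/-:hTDP+, 2.82 to 12.4 in Grn+/+:hTDP+, 2.55 to 6.497 in Grn+/-:hTDP- and 1.46 to 6.76 in Grn+/+:hTDP- mice. Summed oligodendrocyte markers had a mean of 1576 TPM in Grn+/-:hTDP+, 2200 in Grn+/+:hTDP+, 1874 in Grn+/-:hTDP- and 1397 in Grn+/+:hTDP- mice, and ran from 823 to 4157 TPM over the 24 libraries. The part of such differences in tissue makeup in the microglial values was not tested.

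The homeostatic genes varied together from mouse to mouse. With the means of genotype and sex removed, the 45 pairs of members had a median Pearson's r of 0.49 over 24 libraries, from -0.31 (Sall1 with Fcrls) to 0.85, and 43 of 45 were above 0. In a permutation test within genotype and sex (100000 draws, two-sided, adjusted over the 45 pairs), 19 pairs passed with Pearson's r and 15 with both Pearson's r and Spearman's rho. This test was added to a plan that gave the r values as description only. The share of pairs drawn from all genes that would pass was not computed, so these counts do not show that the covariation is particular to the set. Tmem119 and Csf1r were the closest pair (r = 0.85, rho = 0.81, permutation p = 0.000320, adjusted p = 0.00705), and r was 0.81 without the 2 libraries farthest from the median of Tmem119. Sall1 and Siglech followed (r = 0.85, rho = 0.82, permutation p = 0.00131, adjusted p = 0.00842), with r = 0.77 without the 2 farthest. P2ry12 and P2ry13, neighbours on chromosome 3 with related ligands, were less close (r = 0.55, rho = 0.50, permutation p = 0.0429, adjusted p = 0.0878). The values share a library and its depth, so r also holds what the libraries have in common.

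Fcrls was the member least like the others. Its r with the mean of the other 9 was 0.09, and 0.27 without the library that stood apart, where it had the lowest Fcrls level of the series at 14.9 TPM beside its high Selplg. Cx3cr1 was the most like the others at 0.89, followed by Tmem119 at 0.84 and Siglech at 0.74, and P2ry12 was at 0.55. The median r of the 45 pairs was 0.49 with and without that library.

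**Figure D5:**
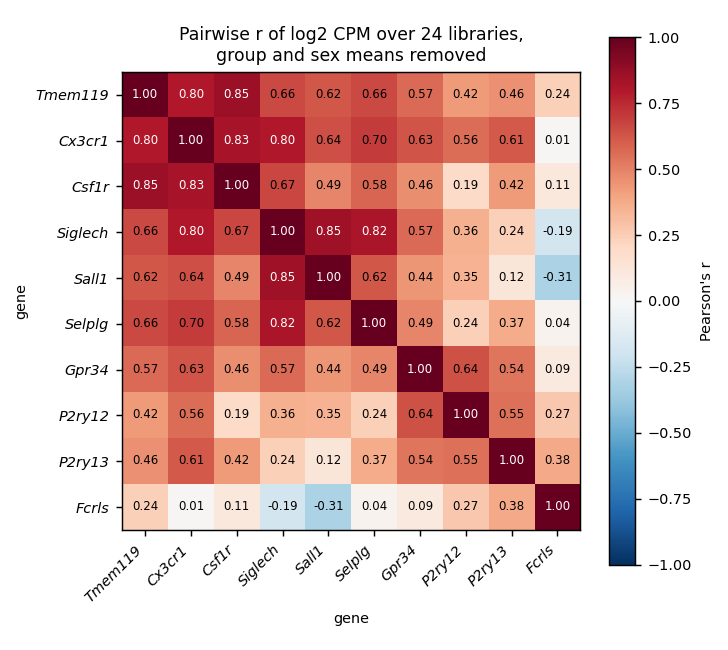
Pearson's r between the log2 CPM of each pair of members over 24 libraries after removal of genotype and sex means; red is positive and blue negative. Tmem119 with Csf1r and Sall1 with Siglech are the closest pairs at 0.85 each, and Fcrls stands apart with r of -0.31 to 0.38.

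The mean centred level of the set (log2 CPM of each gene less its own mean, averaged over the 10) was 0.02 ± 0.122 in Grn+/-:hTDP+, -0.03 ± 0.131 in Grn+/+:hTDP+, 0.06 ± 0.106 in Grn+/-:hTDP- and -0.05 ± 0.0935 in Grn+/+:hTDP- mice (SD, n = 6 each). It ran from -0.23 in replicate 6 of the Grn+/+:hTDP+ mice to 0.24 in replicate 6 of the Grn+/-:hTDP+ mice, both females, so single mice differed by more than the genotype means. As a description over 24 libraries with genotype and sex means removed, it had an r of 0.74 with the mean of the other microglial identity genes (rho 0.70), 0.61 with the transcription factors and 0.36 with the activated microglia genes. Other lists were as close as some of these: its r was 0.56 with the ligands and signalling partners, 0.46 with choroid plexus markers and 0.37 with astrocyte markers, the last -0.04 without the 2 farthest libraries. With all libraries r was -0.54 with neuron markers, -0.23 with vascular, -0.21 with oligodendrocyte, -0.16 with border macrophage and -0.10 with other leukocyte markers. Without the library that stood apart, r was 0.80 with the identity genes and 0.80 with the transcription factors. It was then 0.71 with the ligands and partners, 0.48 with activated genes, 0.53 with astrocyte and 0.37 with choroid plexus markers. The neuron value was then -0.50 and the other leukocyte value 0.15. With genotype and sex means kept, the mean level had an r of 0.19 with the total of reads placed in genes and 0.15 with age.

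The non-member genes whose pattern was most like the mean of the set, among 14216 genes that averaged 1 CPM or more, were Rcn1 (r = 0.91), Sdc3 (0.90), H2-DMa, Diaph1, Mmd2 and Kiss1r (0.87 each), Adcyap1r1 (0.86), and Pea15a, Ngb and Pnck (0.85 each). None of these 10 is in the lists used here. Without the library that stood apart, Rpl22l1 and Itgam (r = 0.88 each) stood among the 10 in place of Ngb and Pnck. Itgam is in the list of other microglial identity genes. An r of at least 0.7 with the set was reached by 297 genes, 2.09% of those compared. Of the members, 6 of 10 reached it, though each is part of the mean it was compared with.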

How the data were processed

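Per the file headers, the authors deposited 1 Salmon quantification per library over 149444 transcripts (1 of them human TARDBP), giving expected counts (Salmon's fractional estimate of reads for each transcript), TPM (abundance corrected for transcript length) and lengths. STAR, SAMtools, Salmon and DESeq2 stand in the submitters' processing notes, with no version; build and annotation were not given in the sources used here. Identifiers were looked up in GENCODE M21 (GRCm38), which placed 138032 (92.4%) of the transcripts in 52352 genes; unmatched mouse transcripts, 1.17% to 1.66% of the reads of a library, were left out.

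From these, both expected counts and TPM were summed over the transcripts of a gene, and the count sums were rounded. Genes were tested with edgeR 4.0.16 (R 4.3.3; quasi-likelihood, two-sided, TMM scaling, filterByExpr) on all 24 libraries with a term per genotype and for sex; 18239 genes passed the filter, and p-values were Benjamini-Hochberg adjusted over them, with calls at 0.05. Groups came from the labels, and each library is a separate mouse. Intervals are at 95%. CPM were computed from the expected counts, with a prior count of 1 on the log2 scale. DESeq2 1.42.0, limma-voom (limma 3.58.1), other scalings, filters and covariates (no sex term, age as a linear term or as a factor), and leaving out each library were alternatives. The edgeR fit was tried on simulated counts in the transgene comparison alone, with planted changes larger than any member's change there. Smaller changes, the other comparisons and the other tools were not tried on simulated counts.

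The members and the gene lists were chosen with earlier results of these data known. Genes named beside the members are the 10 non-members most like the mean of the set, with and without the library that stood apart, called list genes and up to 4 per list in list order. Other outside genes are checks of the labels, host genes, and leukocyte markers given with their libraries at 0, the last chosen after their values were seen. Values of 2 listed genes are not reported here.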

Additional observations from a re-analysis of the deposited data

Results flagged for a closer look

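In 4 of 80 sets of 6 values (10 genes, 4 genotypes, TPM and CPM), 1 mouse lay farther from the others than the 95% limit of Dixon's gap test, and chance flags about 1 in 20 such sets. Tmem119 in replicate 6 of the Grn+/+:hTDP+ mice was 16.1 TPM, below the next value of 20.7 TPM. The same mouse had the lowest Csf1r of its group, 71.4 CPM, with 79.4 CPM next, and the lowest mean level of the set in the series. Csf1r in replicate 6 of the Grn+/-:hTDP+ mice was 107 CPM, above the next value of 87.7 CPM, and that mouse had the highest mean level of the set. Csf1r in replicate 1 of the Grn+/+:hTDP- mice was 60.2 TPM, above the next value of 43.4 TPM. Its CPM was 88.8, with 87.2 CPM next, and short transcripts of Csf1r reached 17.2 TPM in that group.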

How the results depend on the processing

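For the members, 1590 alternative values of 50 log2 changes were computed; 1494 kept their sign, 96 in 24 results changed it, and none passed the adjusted threshold (lowest adjusted p 0.0740). No reversed result was larger than 0.09 in the fit reported. The counts of all genes called moved more. DESeq2 called 62 genes for the transgene, 13 for Grn, 7 for the interaction, 67 for both changes against neither and 23 for sex. With age as a factor 2, 1 and 3 were called for the transgene, Grn and both changes; without a filter on low counts 9, and with length-scaled counts 7, were called for both changes. Leaving out 1 library gave 4 to 16 calls for both changes; 11 of the 24 libraries moved that count past 1.5 times. The cause of these shifts was not tested.

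Values that changed sign were as follows. In the transgene effect, with linear age P2ry12 was -0.00377, and with age as a factor P2ry12 was -0.000446, Tmem119 0.0389, Cx3cr1 0.0245, Csf1r 0.0415, Siglech 0.0355, and with length-scaled counts P2ry12 was -0.00925, Gpr34 -0.00161. In the Grn effect, with linear age Selplg was 0.0105. In the interaction, with linear age Csf1r was -0.011, Siglech -0.0575, Fcrls 0.00674, and with age as a factor P2ry12 was -0.00907, Gpr34 0.0694, and with length-scaled counts P2ry12 was -0.0802. For sex, with linear age Sall1 was -0.000289, and with age as a factor Cx3cr1 was -0.0169, Csf1r -0.00338, Sall1 -0.00257, and with length-scaled counts Csf1r was -0.0216.

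Leaving out each library gave the following ranges where a sign changed. For the transgene these were -0.0676 to 0.00175 for Csf1r, -0.0427 to 0.0149 for Cx3cr1, -0.0296 to 0.0414 for Gpr34, -0.0198 to 0.026 for P2ry12, -0.0507 to 0.00838 for Sall1, -0.0206 to 0.0657 for Selplg, -0.073 to 0.0138 for Siglech and -0.0425 to 0.0231 for Tmem119. For Grn it was -0.0393 to 0.0525 for Selplg. For the interaction these were -0.0501 to 0.0895 for Csf1r, -0.0177 to 0.0742 for P2ry12 and -0.0397 to 0.131 for Siglech. For both changes these were -0.0075 to 0.0986 for Csf1r, -0.0582 to 0.0908 for Fcrls and -0.0295 to 0.0763 for Selplg. For sex these were -0.0152 to 0.045 for Csf1r, -0.0114 to 0.0462 for Cx3cr1, -0.0665 to 0.00667 for Fcrls, -0.0148 to 0.0434 for Sall1, -0.0202 to 0.0705 for Selplg, -0.0225 to 0.0644 for Siglech and -0.0536 to 0.0121 for Tmem119. In CPM, which is not corrected for length, Cx3cr1 ranked above P2ry12, and Gpr34 was the lowest member. No paired analysis was possible because the labels number each library once and pair none across genotypes. With 6 mice per genotype the intervals of single members reach 0.26 in the average effects and 0.68 in the interaction, which limits what could be seen.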
